A study of Mus musculus with 14 samples.

Results

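The 40 genes described here encode the collagens, basement membrane proteins, proteoglycans, glycoproteins and remodelling enzymes of the extracellular matrix, together with the fibroblast receptor Pdgfra and the actin-binding protein gelsolin. They were chosen by name, and all 40 were found among the 24354 gene symbols of the expression table. The RNA came from quadriceps of resting male C57BL/6 mice aged 4 months at ZT10, that is, 10 hours after lights on. Expression was measured by RNA-seq in 3 HDAC3 wild-type and 3 HDAC3 knockout libraries, among 14 samples of the series. All mice had normal chow, a normal light/dark schedule and no treatment. The labels give no allele, promoter or cell type for the deletion, and they do not say whether the replicates were separate animals, so the spread between replicates may be technical. Values are FPKM, a read level corrected for gene length and sequencing depth, so that levels of different genes can be compared within a library.

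Skeletal muscle fibres are each wrapped in a basement membrane of laminins, type IV collagen, nidogens and perlecan, and are bundled by an interstitial matrix of fibrillar collagens with collagen VI, decorin and fibronectin. Fibroblasts of the interstitium, which carry the receptor PDGFRA, make most of the fibrillar matrix, while muscle fibres, endothelial cells and Schwann cells lie on basement membranes. HDAC3 is a histone deacetylase that works in the NCoR and SMRT corepressor complexes.

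As a check of the labels, Hdac3 was at 33.3, 31.0 and 23.7 FPKM in wild-type replicates 1 to 3 and at 5.51, 6.29 and 8.16 in the knockout replicates. The shallowest libraries were a pair of knockout ones: as a multiple of the depth of wild-type replicate 1, knockout replicates 1 and 3 stood at 0.660 and 0.674, and the other 3 libraries at 0.831 to 1.02. For the labelled tissue, 10 muscle fibre markers summed to between 77373 and 96211 FPKM per library. The 40 matrix genes together held 0.226% to 0.279% of all FPKM in the wild-type libraries, and 0.238%, 0.221% and 0.167% in knockout replicates 1, 2 and 3.

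Most matrix genes had lower means in the knockout, with type I collagen and fibromodulin among the largest differences, and the test between libraries called none of them. Lamb2, the laminin beta-2 chain, had a higher mean. Two-sided tests were made with limma, which sets the difference of log2(FPKM + 1) against the spread between libraries, with p-values adjusted by Benjamini-Hochberg over the 9204 genes that the authors had tested. Of the 40 members, 37 were among those 9204 genes, and Col18a1, Nid2 and Timp1 were not. Limma called 0 of the 37 at an adjusted p under 0.05, against 4.72% of all tested genes (3.04% higher and 1.67% lower). At an unadjusted p under 0.05, limma had 1 higher and 3 lower, a share of 10.8% against 21.5% of all tested genes (12.2% higher and 9.22% lower). The authors' deposited table, made with Cuffdiff, called 8 of the 37 at q under 0.05, of which 1 was higher (Lamb2) and 7 lower (Col1a1, Col1a2, Col5a1, Fmod, Postn, Tnc and Timp2). That is 21.6% of the members against 10.8% of all tested genes in the authors' deposited table, with 18.9% against 4.94% for lower genes and 1 gene against 5.90% for higher ones. At q under 0.1 the authors' deposited table had 1 member higher and 9 lower (27.0%), the further 2 being Serpinh1 and Lox, against 14.4% of all tested genes (7.72% higher and 6.70% lower). The median log2 difference of the 37 was -0.22, and 29 lay below 0. Over all tested genes the median was 0.01 and 48.3% lay below 0. Rescaling the libraries by their median ratio put 33 of the 37 below 0, with a median of -0.24. Without knockout replicate 3 the median was -0.09 and 28 lay below 0.

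**Figure D1:**
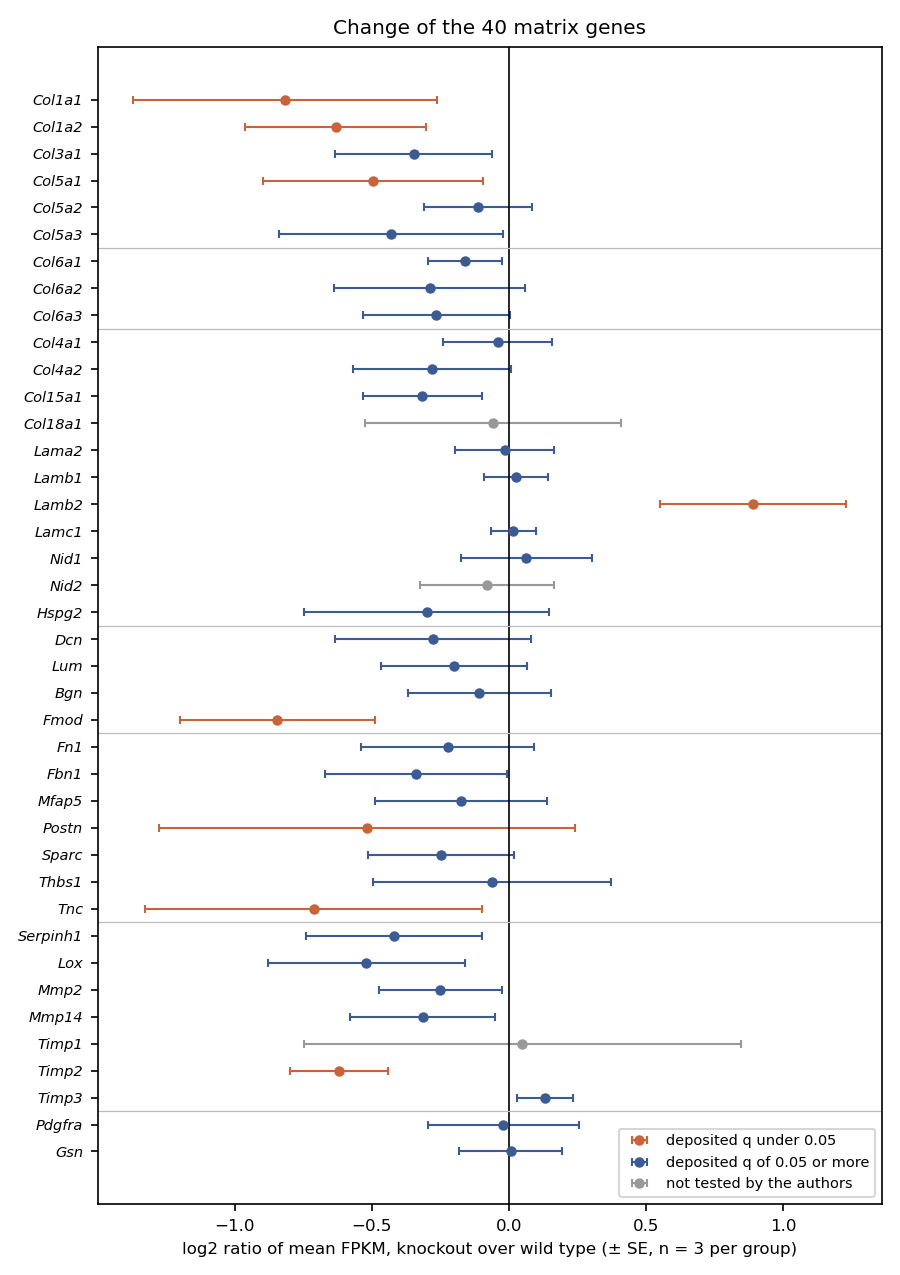
Log2 ratio of mean FPKM, knockout over wild type, for the 40 matrix genes (x axis), with bars for the standard error from 3 libraries per group. Genes are ordered by role from fibrillar collagens at the top to Pdgfra and Gsn at the bottom, and colours give the call in the authors' deposited table. Lamb2 stands at 0.89 ± 0.34 on the right, while Fmod, Col1a1, Tnc, Col1a2 and Timp2 lie furthest to the left.

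The groups did not overlap for 4 of the 37 tested members (10.8%): the knockout libraries lay below for Col1a2, Fmod and Timp2, and above for Lamb2. Of all tested genes 28.0% did not overlap (15.6% higher and 12.4% lower). The 250 bases before the annotated start of these 4 genes are given because they are the members whose groups separated. They are RefSeq sequences of GRCm38.p6, 5′ to 3′ on the strand of the gene, at chr6:4505368-4505617 for Col1a2 (plus strand), chr11:118355412-118355661 for Timp2 (minus strand), chr1:134037004-134037253 for Fmod (plus strand) and chr9:108479612-108479861 for Lamb2 (plus strand). Capitals mark the CCAAT box (CCAAT) and the GC box (GGGCGG), which were searched on both strands together with the TATA box (TATAAA) and the nuclear receptor half-site (AGGTCA).
Col1a2: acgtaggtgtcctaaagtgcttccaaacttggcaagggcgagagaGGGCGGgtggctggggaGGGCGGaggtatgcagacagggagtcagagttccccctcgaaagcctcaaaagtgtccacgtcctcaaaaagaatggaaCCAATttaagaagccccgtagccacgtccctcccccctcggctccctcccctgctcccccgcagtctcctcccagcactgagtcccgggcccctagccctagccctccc
Timp2: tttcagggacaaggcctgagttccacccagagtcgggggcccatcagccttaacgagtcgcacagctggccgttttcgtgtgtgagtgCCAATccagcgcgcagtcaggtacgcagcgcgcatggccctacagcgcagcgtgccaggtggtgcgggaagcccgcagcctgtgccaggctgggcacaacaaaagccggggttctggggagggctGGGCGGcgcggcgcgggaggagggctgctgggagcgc
Fmod: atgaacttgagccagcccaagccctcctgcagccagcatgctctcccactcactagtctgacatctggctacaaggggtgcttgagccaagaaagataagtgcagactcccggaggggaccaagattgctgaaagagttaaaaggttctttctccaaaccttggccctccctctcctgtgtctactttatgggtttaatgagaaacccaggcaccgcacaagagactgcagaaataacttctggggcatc
Lamb2: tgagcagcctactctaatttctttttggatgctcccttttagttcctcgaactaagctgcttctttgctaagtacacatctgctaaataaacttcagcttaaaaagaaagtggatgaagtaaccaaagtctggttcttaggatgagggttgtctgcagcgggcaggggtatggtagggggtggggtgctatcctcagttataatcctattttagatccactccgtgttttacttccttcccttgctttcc

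Col1a2 held a CCAAT box and a pair of GC boxes, and Timp2 held both motifs. None of the 4 motifs was found in the windows of Fmod and Lamb2. The matches in these windows did not overlap each other. G and C made up 62.0% of the Col1a2 window, 68.0% of that of Timp2, 51.2% of that of Fmod and 43.6% of that of Lamb2, against a median of 52.4% over 32851 windows. RefSeq windows matched 29 of the 40 members, with 35 windows in all. Of these 35, 34.3% held CCAAT, 62.9% GGGCGG, 11.4% TATAAA and 2.86% AGGTCA. Over all 32851 windows the shares were 33.8%, 32.7%, 12.4% and 14.0%. The GC box was thus more frequent and the half-site less frequent in these windows than in all windows, which is a description of letters and was not tested.

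Fibrillar collagens form the load-bearing fibres of the interstitium. All 6 had lower means in the knockout, and 3 of the 6 were called lower in the authors' deposited table. Col1a1, the alpha-1 chain of type I collagen, was at 28.7, 43.0 and 65.3 FPKM in wild type and at 24.7, 40.2 and 12.9 FPKM in the knockout. The groups overlapped: knockout replicate 2 was close to wild-type replicate 2, and knockout replicate 3 was the lowest of all. Its mean was 1.76-fold lower (log2 ratio -0.82 ± 0.55, SE), with a q of 0.00119 in the authors' deposited table. Col1a2, the partner chain, was at 69.7, 75.4 and 86.7 FPKM in wild type and at 50.01, 68.7 and 30.9 in the knockout. The groups did not overlap, but wild-type replicate 1 and knockout replicate 2 were close. It was 1.55-fold lower (-0.63 ± 0.33), with a q of 0.00119 in the authors' deposited table. That is the lowest q deposited, shared by 386 genes, so it does not rank the genes that have it. Limma gave adjusted p of 0.297 for Col1a1 (0.165 to 0.599 over 11 alternatives) and 0.185 for Col1a2 (0.0786 to 0.353). Without knockout replicate 3 the folds were 1.41 and 1.30.

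Col3a1, the chain of type III collagen that mixes with type I in elastic tissues, was the most abundant collagen, at 87.8, 69.2 and 102 FPKM in wild type and 71.6, 85.1 and 46.9 in the knockout. The groups overlapped, and the lowest value was again that of knockout replicate 3. Col5a1, of the type V collagen that nucleates fibrils, was at 6.28, 5.67 and 11.6 FPKM against 6.08, 6.57 and 4.06. Here wild-type replicate 3 alone was high: without it the fold went from 1.41 to 1.07, although the q in the authors' deposited table was 0.0294. Col5a3 showed the same shape, at 3.79, 3.32 and 7.60 FPKM in wild type against 3.25 to 3.93 in the knockout. Col5a2 was at 10.7 to 12.6 FPKM in wild type and 8.14 to 12.7 in the knockout. Of the 6 fibrillar genes, 5 had their highest value in wild-type replicate 3 and 5 their lowest in knockout replicate 3. The ratio of Col1a1 to Col1a2 varied between libraries of a group, from 0.412 to 0.753 in wild type and from 0.417 to 0.586 in the knockout.

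**Figure D2:**
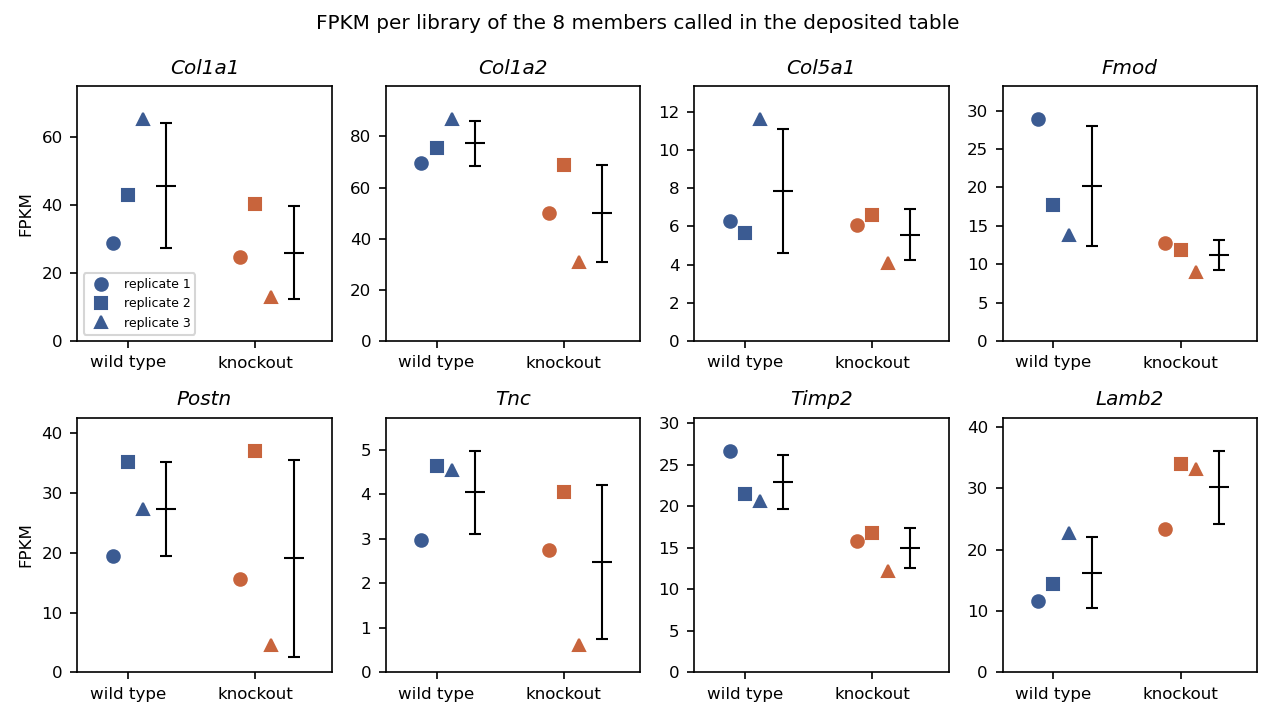
FPKM per library (y axis, from 0) of the 8 members called in the authors' deposited table, wild type in blue and knockout in orange, with the symbol giving the replicate number and black bars the mean ± SD of 3 libraries. The groups separate for Col1a2, Fmod, Timp2 and Lamb2 and overlap for Col1a1, Col5a1, Postn and Tnc, in which knockout replicate 3 is the lowest library.

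Collagen VI forms beaded filaments next to the basement membrane. Its 3 chains had lower means in the knockout with overlapping groups, and none was called in the authors' deposited table, where q ran from 0.315 to 0.622. Col6a1 was at 16.1, 15.7 and 18.5 FPKM in wild type and at 17.3, 14.3 and 13.5 in the knockout. Col6a2 was at 9.35, 9.62 and 18.4 FPKM against 10.7, 10.2 and 9.65, so that only wild-type replicate 3 exceeded the knockout libraries. Col6a3 was at 13.8 to 15.3 FPKM in wild type and 9.36 to 16.5 in the knockout. The ratio of Col6a1 to Col6a2 was 1.72, 1.63 and 1.01 in wild type and 1.40 to 1.61 in the knockout.

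Among basement membrane genes, Lamb2 had the largest difference. Of the 9 tested, 4 had higher and 5 lower means, and the median log2 difference was 0.00. Col15a1, Hspg2 and Col4a2 had means 1.25-, 1.23- and 1.21-fold lower, with overlapping groups. The authors' deposited table called 1 of the 9 higher and none lower, against 5.90% and 4.94% of all tested genes. Limma called none. At an unadjusted p under 0.05 limma had Lamb2 alone. Lamb2, the laminin beta-2 chain concentrated at neuromuscular junctions, was at 11.7, 14.4 and 22.8 FPKM in wild type and at 23.3, 34.0 and 33.1 in the knockout. No library overlapped, but wild-type replicate 3 and knockout replicate 1 lay next to each other. The mean was 1.85-fold higher (log2 ratio 0.89 ± 0.34), with a q of 0.00119 in the authors' deposited table. Limma gave Lamb2 a log2 difference of 0.88 ± 0.25 (SE) with an adjusted p of 0.0950. Over the alternatives the adjusted p of limma ran from 0.0381, without wild-type replicate 3, to 0.255, without wild-type replicate 2. The first was the only setting of 11 in which limma called a member.

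The other laminin chains of muscle differed little between the groups. Lama2, the laminin alpha-2 chain whose loss causes a muscular dystrophy, was at 16.2, 12.3 and 11.1 FPKM in wild type and 12.1 to 13.9 in the knockout. Lamb1, the beta-1 chain that takes the place of beta-2 along the rest of the fibre, was at 5.12 to 6.45 FPKM and 5.45 to 6.28. Lamc1, the shared gamma-1 chain, was at 13.0 to 15.1 and 13.5 to 15.3. Their log2 ratios of means were -0.02 ± 0.18, 0.03 ± 0.12 and 0.02 ± 0.08, each within 1 standard error of 0. The ratio of Lamb2 to Lamb1 was 1.81, 2.58 and 4.45 in wild-type replicates 1 to 3 and 4.29, 5.42 and 5.80 in the knockout replicates. The mean of this ratio was 5.17 ± 0.787 (SD) in the knockout and 2.95 ± 1.36 in wild type, with an overlap between wild-type replicate 3 and knockout replicate 1.

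Among the other basement membrane genes, Col4a1 was at 23.4, 20.1 and 31.3 FPKM in wild type and 22.6, 24.4 and 25.7 in the knockout. Its partner chain Col4a2 was at 12.02, 10.8 and 19.5 against 10.5, 11.5 and 12.8 FPKM. Wild-type replicate 3 was the highest library for both chains of collagen IV. The ratio of Col4a1 to Col4a2 was 1.61 to 1.95 in wild type and 2 to 2.15 in the knockout, without overlap. Wild-type replicate 1 and knockout replicate 3 lay next to each other in this ratio, and the groups of each chain alone overlapped. The ratio was chosen with earlier results of these data known and carries no test, and 28.0% of all tested genes did not overlap. Hspg2, which encodes perlecan, varied most among wild-type libraries, at 6.19, 9.25 and 16.6 FPKM, and was at 6.87 to 9.94 in the knockout. Nid1, a linker of laminin and collagen IV, was at 24.1, 16.0 and 14.4 FPKM against 18.7, 19.3 and 18.9. Col15a1, a collagen of the outer basement membrane zone, was at 6.81 to 10.6 FPKM in wild type and 6.14 to 7.11 in the knockout. The untested Nid2 and Col18a1 were low, at 1.39 to 2.11 and 1.07 to 2.39 FPKM over all 6 libraries.

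Small leucine-rich proteoglycans bind collagen fibrils and set their diameter. Fmod, fibromodulin, was at 28.9, 17.7 and 13.8 FPKM in wild type and 12.8, 11.8 and 8.999 in the knockout. The groups did not overlap, although wild-type replicate 3 and knockout replicate 1 differed by little. The mean was 1.79-fold lower (-0.84 ± 0.36), with a q of 0.00119 in the authors' deposited table and an adjusted p of 0.152 by limma (0.0821 to 0.359 over the alternatives). Dcn, decorin, was the most abundant of the 40 genes, at 372, 198 and 197 FPKM in wild type and 245, 213 and 174 in the knockout. Its difference in means rested on wild-type replicate 1. Lum (lumican) was at 22.3 to 29.4 FPKM in wild type and 16.3 to 29.6 in the knockout, and Bgn (biglycan) at 13.6 to 19.4 and 12.8 to 20.3. The groups of these 3 genes overlapped, and q in the authors' deposited table was 0.282, 0.527 and 0.783.

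Fibromodulin is also abundant in tendon. Of 10 tendon markers, 8 were tested, and 3 were called lower in the authors' deposited table (Thbs4, Kera and Fmod), against 4.94% of all tested genes. By limma 7 of the 8 lay below 0 (87.5%, median -0.58), against 48.3% of all tested genes. At an unadjusted p under 0.05, limma had 4 lower and 0 higher, against 9.22% and 12.2% of all tested genes. Without overlap, 3 were lower and 0 higher, against 12.4% and 15.6%. The 9 markers other than Fmod summed to between 50.15 and 60.1 FPKM in wild type and to 38.2, 29.9 and 24.6 in the knockout, and none of the 10 was at 0 in every library. Thbs4, thrombospondin 4, was at 31.8, 35.9 and 32.5 FPKM in wild type and 21.1, 16.1 and 17.1 in the knockout. Limma called Thbs4 lower with an adjusted p of 0.0162, but not without wild-type replicate 2 (0.0780) or knockout replicate 3 (0.0716). Kera, keratocan, was at 8.42, 3.41 and 4.03 FPKM against 2.08, 0.990 and 0.815, and limma did not call it (adjusted p = 0.0552). For 2 further tendon genes the groups overlapped. Tnmd was at 2.24 to 10.3 and 1.91 to 4.55 FPKM, and Scx was at 0.415 to 2.70 and 2.07 to 3.13. The 4 tendon genes were picked out after their values had been seen. In bulk muscle, fewer cells of a type and less RNA per cell cannot be told apart, and the part of the tendon markers in the lower Fmod and collagen levels was not tested.

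Fibroblast markers did not separate the groups, although 12 of the 14 tested had lower means in the knockout. Pdgfra was at 9.97, 6.48 and 6.01 FPKM in wild type and 8.57, 7.32 and 6.25 in the knockout (log2 ratio -0.02 ± 0.27). The 12 fibroblast markers that are not members summed to 237, 176 and 178 FPKM in wild type and to 218, 171 and 160 in the knockout. Of the 15 fibroblast markers, 14 were tested, limma called none, and 1 (Col14a1) was called lower in the authors' deposited table. At an unadjusted p under 0.05 limma had 0 of the 14. By limma 11 of the 14 lay below 0 (78.6%, median -0.14), against 48.3% of all tested genes. Of the 11 tested that are not members, 9 lay below 0 (81.8%, median -0.058). Gsn, gelsolin, was at 149 to 213 FPKM in wild type and 166 to 215 in the knockout. Endothelial markers summed to 123 to 134 and 124 to 140 FPKM, smooth muscle and pericyte markers to 237 to 315 and 250 to 268, and macrophage markers to 76.9 to 81.8 and 53.0 to 86.3. Neutrophil markers summed to 481 FPKM in wild-type replicate 2 and to 3.90 to 12.2 in the other 5 libraries. Of these, 3 of 3 tested were called lower in the authors' deposited table, against 4.94% of all tested genes. Limma had none of the 3 at an unadjusted p under 0.05, and the groups overlapped for all 3. None of these markers was at 0 in every library.

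**Figure D3:**
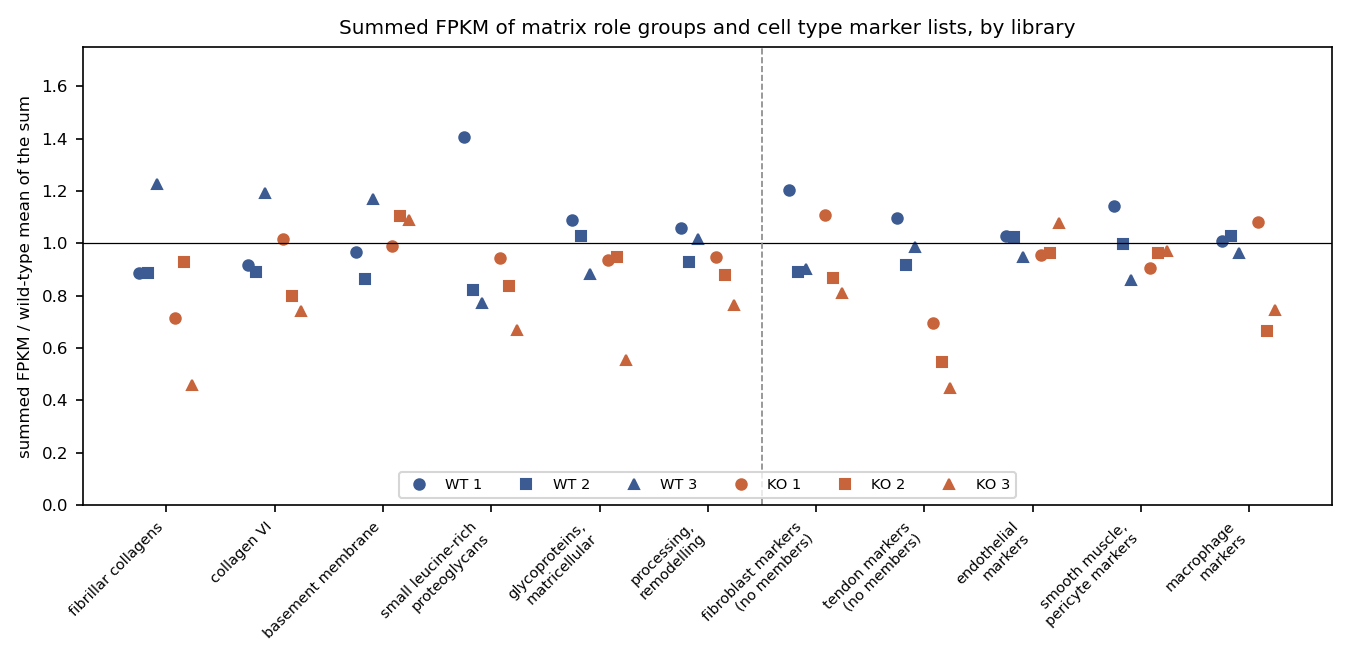
Summed FPKM per library, divided by the wild-type mean of the same sum (y axis, from 0), for the matrix role groups (left of the dashed line) and for marker lists of cell types (right). The fibrillar collagen sum of knockout replicate 3, at 107 FPKM, lies below those of the other 5 libraries (167 to 286), and the tendon marker sum is lower in all 3 knockout libraries.

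Glycoproteins and matricellular proteins had 7 of 7 means lower. The authors' deposited table called 2 of the 7 lower, Postn and Tnc (28.6%, against 4.94% of all tested genes). Limma called none of the 7, and had none at an unadjusted p under 0.05. For Postn and Tnc the difference in means shrank most when knockout replicate 3 was left out. The calls of the authors' deposited table were not remade without it. Postn, periostin, was at 19.4, 35.1 and 27.4 FPKM in wild type and at 15.6, 37.0 and 4.61 in the knockout, so that the highest and the lowest of all 6 libraries were knockout libraries. Its fold was 1.43, and 1.04 without knockout replicate 3 or 2.71 without knockout replicate 2. Tnc, tenascin-C, was at 2.98, 4.63 and 4.54 FPKM against 2.76, 4.05 and 0.616. Its fold was 1.64, and 1.19 without knockout replicate 3 or 2.40 without knockout replicate 2. The q in the authors' deposited table was 0.0345 for Postn and 0.00460 for Tnc, whereas limma gave adjusted p of 0.476 and 0.380. Within the wild-type group both genes were lowest in replicate 1, and within the knockout group both were highest in replicate 2.

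The other genes of this role had overlapping groups. Fn1, fibronectin, was at 11.6 to 14.7 FPKM in wild type and at 15.6, 9.46 and 8.18 in the knockout. Fbn1, the microfibril protein fibrillin-1, was at 11.7, 10.1 and 8.40 FPKM against 11.02, 5.28 and 7.57. Sparc, a collagen-binding protein, was at 96.7, 75.6 and 67.8 FPKM against 81.2, 73.2 and 47.7. In these genes knockout replicate 1 lay within or above the wild-type range, and the other knockout libraries lay at or below it, except that knockout replicate 2 was within it for Sparc. Mfap5, a microfibril-associated protein, was at 6.55 to 12.2 FPKM and 6.70 to 8.45. Thbs1, thrombospondin 1, was the only member with its highest value in knockout replicate 3, at 5.94 FPKM, against 2.99 and 2.58 in the other knockout libraries and 3.07 to 4.57 in wild type.

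Among processing and remodelling genes, only Timp2 had groups that did not overlap. Timp2, an inhibitor of matrix metalloproteinases that also takes part in activating MMP2, was at 26.7, 21.5 and 20.7 FPKM in wild type and at 15.9, 16.7 and 12.2 in the knockout. No library overlapped, and the mean was 1.54-fold lower (-0.62 ± 0.18), with a q of 0.00302 in the authors' deposited table. Limma gave Timp2 a log2 difference of -0.59 ± 0.15 and an adjusted p of 0.0753, the lowest of the 37 members, with 0.0693 to 0.199 over the alternatives. Timp3, another inhibitor, went the other way within its spread, at 41.6, 34.5 and 33.5 FPKM in wild type and 39.1, 40.4 and 40.6 in the knockout. The ratio of Timp2 to Timp3 was 0.642, 0.624 and 0.618 in wild type and 0.406, 0.415 and 0.301 in the knockout, without overlap. Mmp2, gelatinase A, was at 19.9, 14.3 and 16.3 FPKM against 16.5, 15.2 and 10.8, and the ratio of Mmp2 to Timp2 was 0.666 to 0.788 in wild type and 0.885 to 1.04 in the knockout. Both ratios contain Timp2, whose own groups did not overlap, so they are not results separate from that of Timp2. The ratios were chosen after the values had been seen and carry no test.

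Serpinh1, the collagen chaperone HSP47, was at 15.8, 21.1 and 28.5 FPKM in wild type and 21.1, 13.7 and 14.1 in the knockout. Lox, which crosslinks collagen and elastin, was at 6.33, 4.62 and 3.50 FPKM against 4.29, 3.58 and 2.21. Both had overlapping groups, with q of 0.0864 and 0.0662 in the authors' deposited table. Mmp14, the membrane-bound protease that activates MMP2, was at 2.60 to 3.59 FPKM in wild type and 1.68 to 2.80 in the knockout. The untested Timp1 was low and uneven, at 0.708, 1.14 and 3.24 FPKM against 2.42, 2.13 and 0.701.

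Library by library, the members varied more than most genes. Their median coefficient of variation between replicates was 21.7% in wild type and 21.3% in the knockout, against 13.2% and 12.1% over all tested genes. Of the 40 members, 20 had their lowest value in knockout replicate 3, which was the lowest library for 14.1% of all tested genes. The highest value fell in wild-type replicate 3 for 15 members and in wild-type replicate 1 for 13 (37.5% and 32.5%, against 20.6% and 18.7% of tested genes). The members highest in wild-type replicate 3 were mostly collagens: 5 of 6 fibrillar collagens, 2 of 3 collagen VI chains and 5 of 11 basement membrane genes. Those highest in wild-type replicate 1 included 2 of 4 proteoglycans, 3 of 7 glycoproteins and 4 of 7 processing and remodelling genes, but no fibrillar collagen. The wild-type proteoglycan sum was 448 FPKM in replicate 1 against 262 and 246 in the others. Dcn alone held 372, 198 and 197 FPKM of these sums in replicates 1 to 3. The wild-type fibrillar collagen sum was 286 FPKM in replicate 3 against 207 in each of the others. In the knockout, the fibrillar sum was 167, 216 and 107 FPKM, whereas the basement membrane sum was 128, 142 and 140. The latter includes Lamb2, at 23.3, 34.0 and 33.1 FPKM in the knockout against 11.7, 14.4 and 22.8 in wild type.

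**Figure D4:**
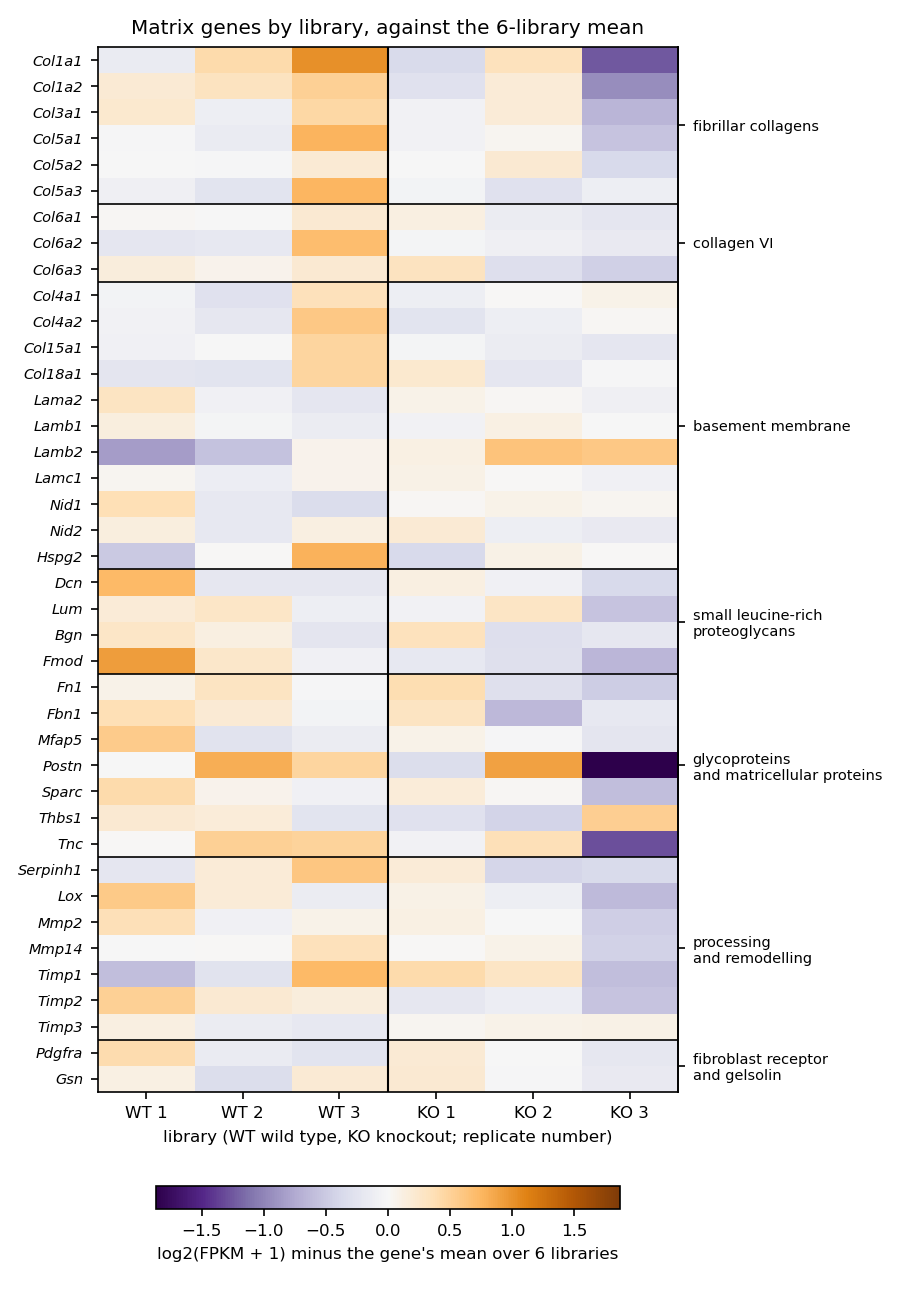
Log2(FPKM + 1) of each of the 40 members in each library, minus the mean of the gene over the 6 libraries (colour; orange above, purple below), with genes in rows by role and libraries in columns. Wild-type replicate 3 is high for collagens, wild-type replicate 1 for proteoglycans and glycoproteins, and knockout replicate 3 is the lowest library of 20 members but not of laminins, collagen IV, Thbs1 or Timp3.

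The wider matrix was described from 8 further lists with 150 genes, of which 91 were tested. The authors' deposited table called 20 of the 91 (against 10.8% of all tested genes), 11 higher and 9 lower, and limma called 2, both higher (against 4.72%). The median log2 difference of the 91 was -0.07. Limma called Col9a1, a chain of cartilage-type collagen IX, with an adjusted p of 0.0379. It was at 1.16, 1.06 and 0.809 FPKM in wild type and at 2.84, 6.62 and 3.19 in the knockout, without overlap. Limma also called Sgcd, delta-sarcoglycan of the dystrophin complex, with an adjusted p of 0.0304. Sgcd was at 66.5, 70.5 and 65.3 FPKM against 90.7, 99.1 and 93.3, 1.40-fold higher on average. The call of limma was lost for Col9a1 when any single library was left out (adjusted p of 0.0509 to 0.124) or no filter was used (0.0795), it was lost for Sgcd when any single library was left out (0.0616 to 0.110).

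Of the 14 tested genes that link fibres to the matrix, 5 were called higher and none lower in the authors' deposited table, against 5.90% and 4.94% of all tested genes. Beside Sgcd they were Sspn (sarcospan), the integrin genes Itga7 and Itgb5, and Itga5, a fibronectin receptor chain. Itga7, the main laminin receptor of muscle fibres, was at 11.3, 16.6 and 20.0 FPKM in wild type and 19.3, 25.2 and 23.3 in the knockout. Sspn was at 21.5 to 23.1 FPKM in wild type and at 35.7, 27.4 and 34.4 in the knockout. Itga7 and Itgb5 overlapped between the groups, while Sspn, Itga5 and Sgcd did not. Of the 14, 4 were higher and 1 lower without overlap, against 15.6% and 12.4% of all tested genes. Limma did not call Itga7 (adjusted p = 0.210), Itgb5 (0.277), Itga5 (0.153) or Sspn (0.0563). At an unadjusted p under 0.05, limma had 5 of the 14 higher and 0 lower, against 12.2% and 9.22% of all tested genes.

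Among 15 tested genes of collagen modification, P4hb and P4ha2, subunits of prolyl 4-hydroxylase, were called in opposite directions in the authors' deposited table, a share of 13.3%, near the 10.8% of all tested genes. P4hb, which is also the general protein disulfide isomerase, was at 53.5 to 55.1 FPKM in wild type and at 109, 69.0 and 94.4 in the knockout. P4ha2 was at 8.61, 10.8 and 9.78 FPKM against 5.46, 6.37 and 7.75. Neither overlapped between the groups, and limma gave adjusted p of 0.0563 and 0.0963. Among the 15 genes, 1 was higher and 5 were lower without overlap, against 15.6% and 12.4% of all tested genes. For this list limma had 2 higher and 3 lower at an unadjusted p under 0.05, against 12.2% and 9.22% of all tested genes. Of 7 tested other collagens, Col14a1 and Col16a1 were called lower in the authors' deposited table beside the higher Col9a1 (42.9% against 10.8%). Col16a1 was 1.71-fold lower with overlapping groups, and 2.88-fold lower without knockout replicate 2.

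Of 10 tested other proteoglycans, Gpc1 (glypican 1) was called lower and Sdc4 (syndecan 4) higher in the authors' deposited table, against 4.94% and 5.90% of all tested genes. Gpc1 was at 35.6, 56.2 and 85.6 FPKM in wild type and at 26.7, 34.5 and 32.9 in the knockout, with its highest library again wild-type replicate 3. Sdc4 was at 12.8, 15.4 and 17.0 FPKM against 31.8, 16.7 and 30.1, with overlapping groups. Limma called neither gene (adjusted p of 0.158 for Gpc1 and 0.14 for Sdc4). Of 11 tested proteases and inhibitors, 3 were called lower in the authors' deposited table (Htra1, Adamts5 and Ctsk) and 1 higher, 36.4% against 10.8% of all tested genes. The serine protease gene Htra1 was at 11.3 to 12.8 FPKM in wild type and at 6.46, 8.68 and 4.91 in the knockout. Adamts5, an aggrecanase, was at 3.73 to 5.48 FPKM against 1.96 to 3.02. Limma gave adjusted p of 0.0541 for Htra1, 0.0854 for Adamts5 and 0.352 for Ctsk.

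TGF-beta signalling is known to raise collagen synthesis. Of 18 tested genes of its ligands, receptors and targets, 3 were called higher and 1 lower (Pmepa1) in the authors' deposited table, 22.2% against 10.8% of all tested genes, and limma called none. At an unadjusted p under 0.05, limma had 4 higher and 1 lower (27.8% against 21.5%). Cyr61, a matricellular protein, was at 6.92, 21.5 and 12.4 FPKM in wild type and at 25.7, 33.2 and 48.5 in the knockout. Ctgf, a related matricellular protein, was at 3.92, 4.89 and 6.61 FPKM against 6.05, 7.85 and 12.9. In both, and in Thbs1, knockout replicate 3 was the highest library, while it was the lowest for Col1a1, Col1a2, Postn and Tnc. Of 16 tested elastic fibre and other glycoprotein genes, 1 was called lower in the authors' deposited table, Thbs2. That is 6.25%, near the 4.94% of all tested genes. Thbs2 was at 6.66 to 8.29 FPKM in wild type and 4.42, 7.12 and 2.06 in the knockout. None of the 2 tested other laminins (of 7 listed) was called in the authors' deposited table or by limma, also at an unadjusted p under 0.05.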

How the data were processed

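RNA-seq of quadriceps at ZT10 was compared between 3 HDAC3 wild-type and 3 knockout libraries. The submitters' processing notes name TopHat2, Cuffdiff and the mm9 build. Versions, gene annotation, strand setting and scaling are not stated in the sources used here. For each gene and library the authors deposited an FPKM value. The p-value and q-value that they deposited beside them are quoted from the authors' deposited table. Those genes with a deposited p under 1 (9204) were taken as tested.

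Differences were tested with limma 3.58.1 in R 4.3.3 on log2(FPKM + 1) with a mean-variance trend (two-sided, Benjamini-Hochberg, threshold 0.05). This scale understates changes of low genes. Fold changes are ratios of mean FPKM, with a delta-method standard error. The computation was tested on simulated data. Read totals were not at hand, so relative depth is the most frequent ratio between libraries among genes under 0.3 FPKM. It includes any scaling by Cuffdiff, and no counting interval is given.

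Members, gene lists and ratios were chosen with earlier results of these data known. All members are named, and of the other lists the genes called by limma and at most 4 others called in the authors' deposited table, except 1 that is not reported here. Alternatives were another pseudocount, other filters, rescaling, a replicate block and leaving out each library. The 2 peak lists, on mm9, were not used here, since the gene positions at hand are those of GRCm38.p6, so the planned count of peaks near members was not made. The ChIP-seq, input and nascent RNA samples (8) were not analysed here.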

Additional observations from a re-analysis of the deposited data

How the results depend on the processing

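No setting called any of the 37 tested members by limma, except that Lamb2 was called without wild-type replicate 3 (log2 difference 1.14, adjusted p = 0.0381), so the count of members called was 0 to 1 when single libraries were left out, 0 to 1 for higher and 0 for lower members. By the authors' deposited q the members called were 8 (1 higher, 7 lower), and 10 at q under 0.1. The median of the members ran from -0.30 to -0.091 over the libraries left out, the latter without knockout replicate 3.

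Over all genes limma called 434 (280 higher, 154 lower). This was 247 (152 and 95) with no filter and 52 (34 and 18) with the replicate number as a block, against 998 (543 and 455) by the authors' deposited q. Leaving out single libraries gave 20 to 292 (269, 20 and 292 without wild-type replicates 1, 2 and 3, and 82, 195 and 54 without knockout replicates 1, 2 and 3), with 14 to 186 higher and 6 to 106 lower. With 1 library fewer, fewer samples enter each fit. Same-numbered libraries did not deviate together (correlations of -0.00285, 0.0472 and 0.0487 over 9204 genes), so the numbers were not taken to pair them, and not every library correlated best with its own number. With the replicate block the number of members called was unchanged at 0. Among the 91 tested genes of the other lists limma called 2 (2 higher, 0 lower). This became 1 (1 higher) with no filter and 0 with the replicate block, where the adjusted p of limma was 0.0697 for Col9a1 and 0.0773 for Sgcd, and 0.0598 for the tendon marker Thbs4. Leaving out single libraries gave 0 to 4 in all, 0 to 3 higher and 0 to 1 lower. The settings for these lists were chosen after seeing the data.

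The sign of 21 of the 37 members held in all 11 alternatives. The other 16 changed sign in at least 1 alternative and were called by limma in no setting. Rescaling turned Lama2 (-0.022), Lamc1 (-0.00595), Pdgfra (-0.019) and Gsn (-0.0087). Over the libraries left out, the log2 difference ran from -0.25 to 0.039 for Col5a2, from -0.47 to 0.026 for Col5a3, from -0.36 to 0.094 for Col6a2, from -0.16 to 0.15 for Col4a1, from -0.38 to 0.020 for Col4a2, from -0.11 to 0.15 for Lama2, from -0.039 to 0.10 for Lamb1, from -0.045 to 0.059 for Lamc1, from -0.046 to 0.31 for Nid1, from -0.49 to 0.16 for Hspg2, from -0.38 to 0.084 for Dcn, from -0.30 to 0.0076 for Bgn, from -0.27 to 0.14 for Mfap5, from -0.39 to 0.087 for Thbs1, from -0.12 to 0.20 for Pdgfra and from -0.14 to 0.11 for Gsn. The cause was not tested. Knockout replicates 1 and 3 were the shallowest libraries, and what depth adds to the spread of low members was not tested.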
